A study of Mus musculus with 7 samples.

Results

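Transcripts of 35 genes known as hepatocyte genes were read in RNA from sorted bile duct cells of mouse liver. The genes were chosen by name, all 35 were rows of the deposited count table of 24552 gene symbols, and 24 of them had a count in at least 1 of the 7 libraries. The libraries came from EpCAM+ cholangiocytes, the epithelial cells that line the bile ducts, of mice labelled Foxp3GFPDTR, in which the diphtheria toxin receptor is placed in Foxp3-positive regulatory T cells. All mice ate a diet with DDC, which injures bile ducts, for 10 days and were injected intraperitoneally every 48 h, with PBS (4 libraries) or with diphtheria toxin at 1 µg/kg (DT, 3 libraries). The study compared DT with PBS, and no library came from mice without DDC. The labels give neither sex nor age and do not say that each library is a separate mouse, so the spread between libraries may be technical in part. RNA was read from the 3′ ends of transcripts (QuantSeq FWD), so a count is not expected to grow with gene length and counts were not divided by it. CPM values are counts scaled to library size, with TMM factors. Where values of single libraries are listed, they stand in the order PBS 1, 2, 3 and 4, then DT 1, 2 and 3.

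Hepatocytes and cholangiocytes arise from a common progenitor, the hepatoblast, and lie side by side where the smallest bile ducts begin. Hepatocytes make most proteins of blood plasma, among them albumin, apolipoproteins, clotting factors and protease inhibitors, and hold the enzymes of urea synthesis, gluconeogenesis and drug oxidation. The factors HNF1, HNF4, FOXA and C/EBP are known to act at the promoters of many of these genes. EpCAM is a surface protein of duct epithelium, so a sort on it is meant to leave hepatocytes out.

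Listed markers of the labelled cell type were read, most of them in every library. All 22 listed cholangiocyte markers had counts and 17 had them in every library, and together they took 2.57% to 3.02% of counts under PBS and 2.82% to 2.96% under DT. Among them Spp1, which encodes osteopontin, was at 11098 ± 1856 CPM under PBS (SD, n = 4) and 13745 ± 1811 CPM under DT (SD, n = 3). The keratin gene Krt18 was at 3661 ± 558 and 2964 ± 300.3 CPM, the cadherin gene Cdh1 at 3385 ± 277 and 2669 ± 208 CPM, and the claudin gene Cldn4 at 2327 ± 520.0 and 1839 ± 452 CPM. Epcam, for the protein used in the sort, was at 876 ± 173 CPM under PBS and 743 ± 99.5 CPM under DT. Sox9 was at 1162 ± 131 and 1902 ± 847 CPM. Total counts per library ran from 4805018 to 6285624. Macrophage markers took 0.0172% to 0.142% of counts under PBS, highest in PBS 4, and 0.0373% to 0.0617% under DT. PBS 1 and DT 1 held reads of both Xist, which coats the inactive X chromosome, and Y-linked genes. Y-linked counts were 2048, 0, 0 and 0 under PBS and 1681, 1045 and 880 under DT. Xist counts were 630, 12089, 17627 and 10420 under PBS and 453, 0 and 0 under DT. PBS 2 to 4 thus held Xist without Y-linked reads, and DT 2 and DT 3 the reverse. These sex-linked reads moved with the groups, so a difference by sex and one by DT cannot be fully told apart. The part of the sex-linked reads in the results was not tested beyond the fit with a Y-linked covariate given with the processing alternatives.

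Promoter sequences are shown for Alb, Gc and Ambp, which held the most reads, and for G6pc, which held none, since the same motif letters occurred in read and unread genes. They run from 250 bases before to 50 bases after the annotated start, 5′ to 3′ on the gene's strand, in RefSeq sequence of GRCm38.p6, which is not the mm9 build of the counts. Capitals mark the HNF1 letters GTTAAT or, where they go on to match, GTTAATNAT.
Alb (chr5:90460620-90460919, plus strand): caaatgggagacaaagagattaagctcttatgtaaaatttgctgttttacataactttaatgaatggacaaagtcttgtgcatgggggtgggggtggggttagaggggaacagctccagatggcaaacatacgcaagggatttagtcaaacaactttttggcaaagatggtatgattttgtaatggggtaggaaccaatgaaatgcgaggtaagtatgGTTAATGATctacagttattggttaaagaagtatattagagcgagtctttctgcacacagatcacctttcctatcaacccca
Gc (chr5:89457849-89458148, minus strand): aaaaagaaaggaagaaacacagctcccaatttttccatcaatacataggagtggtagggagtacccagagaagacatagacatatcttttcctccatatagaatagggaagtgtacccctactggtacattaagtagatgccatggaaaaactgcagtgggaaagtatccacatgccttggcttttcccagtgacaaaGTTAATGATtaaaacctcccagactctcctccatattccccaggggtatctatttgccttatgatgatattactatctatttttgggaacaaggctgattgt
Ambp (chr4:63154123-63154422, minus strand): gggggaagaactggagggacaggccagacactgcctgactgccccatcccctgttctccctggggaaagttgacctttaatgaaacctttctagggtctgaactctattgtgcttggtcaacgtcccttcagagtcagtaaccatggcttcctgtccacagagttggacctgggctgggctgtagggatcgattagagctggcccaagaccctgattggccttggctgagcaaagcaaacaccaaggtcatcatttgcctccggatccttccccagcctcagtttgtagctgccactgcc
G6pc (chr11:101367466-101367765, plus strand): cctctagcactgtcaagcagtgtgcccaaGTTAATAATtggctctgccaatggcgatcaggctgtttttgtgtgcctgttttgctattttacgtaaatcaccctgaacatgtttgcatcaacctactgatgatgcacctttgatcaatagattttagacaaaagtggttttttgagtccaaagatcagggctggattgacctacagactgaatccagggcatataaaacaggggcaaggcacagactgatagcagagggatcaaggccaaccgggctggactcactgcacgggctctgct
Of the 35 genes, 27 had a promoter in the table, 29 promoters in all. On either strand, GTTAAT occurred in 10 of these 29 promoters (34.5%) and in 7.10% of all 32851 promoters of that length. It was found in 8 of 17 genes with a count and in 2 of 10 genes without one, G6pc and Pck1. Serpina1a, Serpina1b and Serpina1c, which are similar gene copies, were among the 8, so these matches are not independent and raise the 34.5%. Serpina1a was read with only 6 counts in all. The longer GTTAATNAT, which contains it, occurred in the promoters of Alb, Gc, Fga and G6pc among the members and in 0.801% of all promoters. It began 32 bases before the start in Alb, 52 before it in Gc and 221 before it in G6pc. TGTTTAC, for FOXA, occurred in 4 of the 29 and in 3.65% of all promoters. TTGCGNAA, for C/EBP, occurred in 1 of the 29 and in 0.798% of all, and CAAAGTCCA, for HNF4, in 1 of the 29 and in 0.475%. TATAAA, searched on the gene's strand only, occurred in 8 of the 29 and in 8.32% of all. These are matches of letters and no factor binding was measured.

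Secreted plasma proteins supplied nearly all of the hepatocyte reads, and the enzymes nearly none. Of 23 genes for secreted proteins 21 had a count in some library, and they held 99.6% of the 178357 member counts. Of 12 genes for intracellular proteins 3 had a count, together 698 counts, and the other 9 had 0 counts in all 7 libraries. Of all symbols in the count file 53.2% were at 0 everywhere, against 31.4% of the 35 genes. Alb, Gc and Ambp held 77.0% of the member counts, and with Ttr and Trf 86.3%. A count was seen in every library for 7 genes, Alb, Gc, Ambp, Ttr, Trf, Fgb and Serpina1c, the last with a single count in PBS 1. When each library was left out in turn, 20 to 21 secreted and 3 intracellular genes kept a count somewhere.

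**Figure D1:**
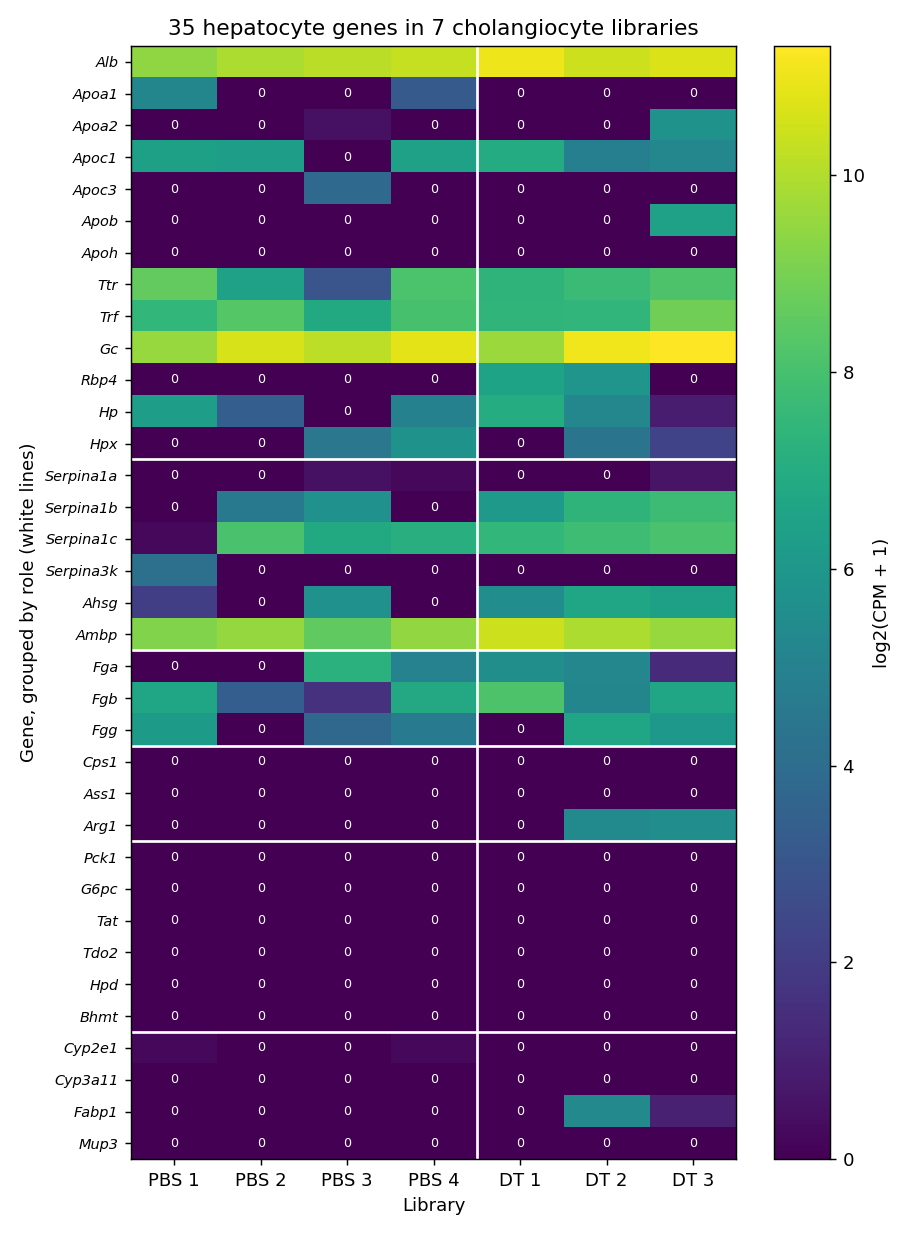
Level of each of the 35 genes (rows, grouped by role between white lines) in each library (columns, PBS left and DT right of the vertical line), as log2(CPM + 1), with 0 written where no read was counted. Alb, Gc and Ambp are bright in all 7 libraries, and the rows from Cps1 to Mup3 hold reads in 6 cells, 2 each for Arg1, Fabp1 and Cyp2e1.

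The share of counts from the 35 genes was higher in every DT library than in every PBS library. It was 0.312%, 0.399%, 0.324% and 0.447% under PBS and 0.587%, 0.532% and 0.606% under DT. The means were 0.371% ± 0.0636 under PBS (SD, n = 4) and 0.575% ± 0.0387 under DT (SD, n = 3), a ratio of 1.55. The exact 95% binomial interval of each library was at most 0.0126 percentage points wide, for counting error only, so the spread between libraries was far wider than it. No test was made of this sum, since the genes were chosen with earlier results of these data known. In bulk libraries more hepatocytes in a sort and more of these RNAs per cell cannot be told apart.

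Of the difference of 0.204 percentage points, Alb made up 32.6%, Ambp 20.9% and Gc 19.6%. The 30 genes other than Alb, Gc, Ambp, Ttr and Trf made up 23.9%. Taken as one sum, a split chosen after the values were seen, these 30 genes held 0.0412%, 0.0378%, 0.0424% and 0.0446% of counts under PBS and 0.103%, 0.0811% and 0.0871% under DT. Their ratio of means, 2.18, was above the 1.67 of Alb and the 1.31 of Gc. By member, the mean share was higher under DT for 18 genes, lower for 6 and 0 in both groups for 11. Cholangiocyte markers had 8.22, 7.02, 9.32 and 6.09 counts for each count of the 35 genes under PBS, and 4.81, 5.46 and 4.89 under DT. The share of the ribosomal RNA row Rn45s, 2.63% to 3.52% under PBS and 3.45% to 4.64% under DT, overlapped between the groups, and without that row the difference was 0.218 percentage points.

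**Figure D2:**
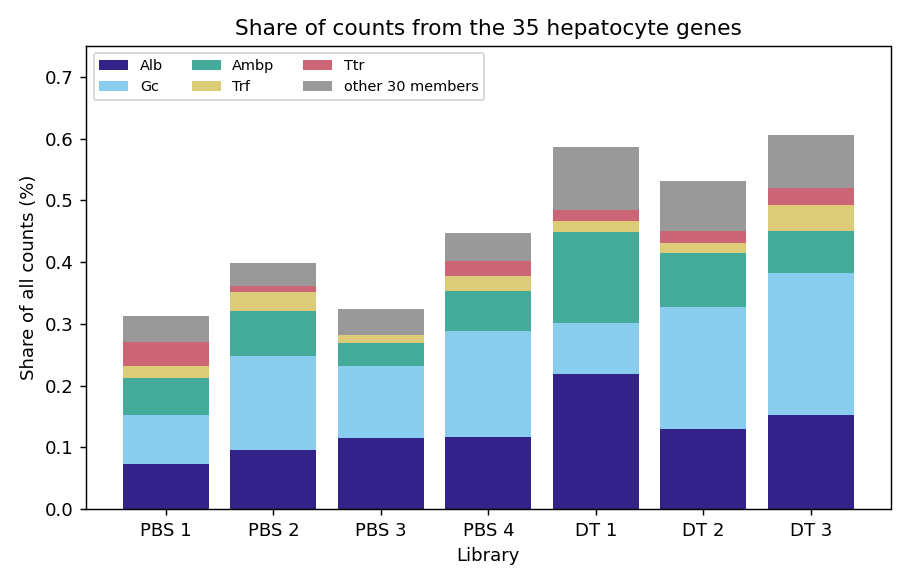
Share of all counts (percent, from 0) taken by the 35 genes in each library, stacked by gene, with the 30 lesser genes as one grey block. The PBS bars end between 0.312% and 0.447% and the DT bars between 0.532% and 0.606%.

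No member passed the test of DT against PBS over all genes. By edgeR's quasi-likelihood test with Benjamini-Hochberg adjustment over 7688 genes, 0 members were called higher and 0 lower, where the call rate over all genes was 0% higher and 0.039% lower. Of the 35 genes 14 passed the filter on low counts and 21 did not, 11 of these because no library held a read. Alb and Ambp had an unadjusted p under 0.05, both higher under DT, where 1.39% of all tested genes did so. DESeq2 and limma-voom each called 0 members as well, with an unadjusted p under 0.05 for 2 and 5 of them. Among the 14 tested members 11 had positive and 3 negative log2 fold changes with a median of 0.77, while 49.3% of all tested genes were positive and their median was -0.02. The filter can keep a gene through its reads in 1 group alone, so this count describes the 14 and not the 35. All 14 had an edgeR adjusted p of 1.00.

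Alb encodes albumin, the main protein of plasma and a carrier of fatty acids and bilirubin. It was at 695, 973, 1142 and 1277 CPM under PBS and at 2062, 1398 and 1698 CPM under DT. All DT libraries were above all PBS libraries, with DT 1 the highest and PBS 1 the lowest. The log2 fold change was 0.75 (SE 0.27, unadjusted p = 0.00741, edgeR adjusted p = 1.00), and it ran from 0.58 to 0.88 when each library was left out. Among 7688 tested genes 3.73% had no overlap with DT higher, and among the 733 whose average log2 CPM reached 8, 7.37% did. Of the members Alb, Ambp and Serpina1b had no overlap in CPM.

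Gc encodes the vitamin D binding protein, which carries vitamin D metabolites and actin in plasma. Its levels were 770.4, 1564, 1156 and 1851 CPM under PBS and 784, 2140.5 and 2548 CPM under DT. DT 2 and DT 3 were above all PBS libraries, while DT 1 lay near the lowest of them. The log2 fold change was 0.45 (SE 0.36, edgeR adjusted p = 1.00), 0.13 without DT 3 and 0.79 without DT 1. Gc and Alb did not keep a fixed proportion. For every 100 counts of Alb there were 111, 161, 101 and 145 counts of Gc under PBS, 38.0 in DT 1, and 153 and 150.0 in DT 2 and DT 3.

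Ttr encodes transthyretin, a carrier of thyroid hormone and of retinol binding protein, and Trf encodes transferrin, the iron carrier. Ttr was at 385, 88.1, 6.80 and 273 CPM under PBS and at 162, 206 and 287 CPM under DT. The PBS libraries spanned the whole DT range, from 33 counts in PBS 3 to 1985 in PBS 1. Trf was at 177, 324, 117 and 258 CPM under PBS and at 169, 174 and 469 CPM under DT. DT 3 was the highest and the other DT libraries lay within the PBS range. The log2 fold changes were 0.22 for Ttr (SE 0.82) and 0.31 for Trf (SE 0.55), and without DT 3 they were -0.04 and -0.36.

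Hemoglobin and heme released into plasma are bound by haptoglobin and hemopexin, the products of Hp and Hpx. Hp had 402, 47, 0 and 152 counts under PBS and 763, 195 and 5 under DT. Hpx had 0, 0, 103 and 284 counts under PBS and 0, 102 and 22 under DT. Neither separated the groups, and their log2 fold changes were 0.90 (SE 2.64) and -1.33 (SE 3.41). Rbp4, which encodes the plasma carrier of retinol, had 0 counts in all PBS libraries and in DT 3, and 567 and 314 counts in DT 1 and DT 2.

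The apolipoprotein genes among the members, whose products carry plasma lipids, were read irregularly. Apoc1 had 446, 399, 0 and 446 counts under PBS and 733, 154 and 208 under DT, with a log2 fold change of -0.02 (SE 2.09). Apoa1, for the main protein of HDL, had 186, 0, 0 and 41 counts under PBS and 0 in each DT library. Apoa2, for another HDL protein, had 0, 0, 2 and 0 counts under PBS and 0, 0 and 299 under DT. Apob, for the structural protein of LDL and VLDL, had 493 counts in DT 3 and 0 in the other 6 libraries. Apoc3 had 65 counts in PBS 3 and 0 elsewhere, and Apoh was at 0 in all 7. Apart from Apoc1, each apolipoprotein member was thus read in at most 2 of 7 libraries, although Alb had at least 3580 counts in each. This does not hold for all apolipoprotein genes. Apoe, which is not a member, had an average log2 CPM of 10.26 and a log2 fold change of 0.51 (SE 0.49).

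Ambp encodes a precursor that is split into alpha-1-microglobulin, a heme-binding protein, and bikunin, a protease inhibitor. It was at 573, 733, 370.2 and 711 CPM under PBS and at 1391, 961 and 754 CPM under DT. The lowest DT library was just above the highest PBS library in CPM. As a share of unscaled counts DT 3 (0.0680%) was below the highest PBS library (0.0718%), so this separation depended on the TMM scaling. The log2 fold change was 0.79 (SE 0.32, unadjusted p = 0.0167, edgeR adjusted p = 1.00), and 0.50 without DT 1.

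Serpina1a, Serpina1b and Serpina1c encode copies of alpha-1-antitrypsin, an inhibitor of neutrophil elastase. Serpina1b had 0, 114, 252 and 0 counts under PBS and 412, 857 and 1231 under DT, with a log2 fold change of 3.00 (SE 1.96). Serpina1c had 1, 1348, 565 and 680 counts under PBS and 1094, 1183 and 1514 under DT, with a log2 fold change of 0.79 (SE 1.21) that was 0.36 without PBS 1 and 1.42 without PBS 2. Serpina1a had 6 counts in all, and Serpina1d, another copy, had 1 count in PBS 3 and 259 in PBS 4. The final 300 bases of the GENCODE M21 transcripts of Serpina1a, Serpina1b and Serpina1c were 95.3% to 96.3% identical between pairs. How reads were divided among these copies is not given in the sources used here, so the single values are uncertain. Serpina3k, which encodes a kallikrein-binding inhibitor, had 88 counts in PBS 1 and 0 elsewhere. Ahsg, which encodes fetuin-A, an inhibitor of calcification, had 17, 0, 253 and 0 counts under PBS and 277, 532 and 484 under DT. Its log2 fold change was 2.47 (SE 2.71) and 6.08 without PBS 3, the only PBS library above 17 counts.

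**Figure D3:**
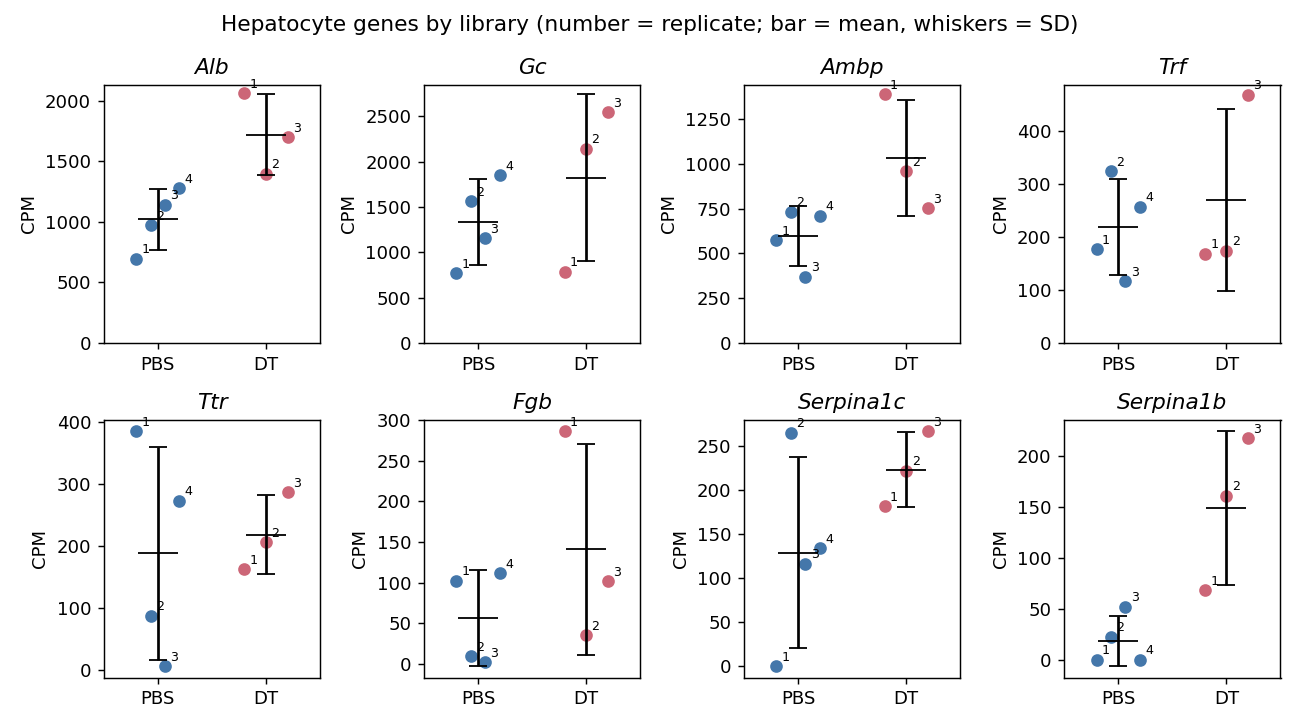
CPM of 8 of the secreted-protein genes in each library (points, numbered by replicate, blue PBS and red DT), with the mean (horizontal bar) and SD (whiskers, n = 4 and n = 3). Alb, Ambp and Serpina1b do not overlap between the groups, while the other 5 do.

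Fga, Fgb and Fgg encode the chains of fibrinogen, the clot protein, which assemble into one molecule. Fgb had 528, 47, 10 and 566 counts under PBS and 1721, 189 and 578 under DT. Fga had 0, 0, 724 and 160 counts under PBS and 280, 195 and 9 under DT. Fgg had 365, 0, 62 and 120 counts under PBS and 0, 524 and 364 under DT. The chains did not rise and fall together by library: PBS 3 had the most Fga reads and the fewest Fgb reads, and DT 1 had the most Fgb reads and no Fgg read. Their log2 fold changes were 1.32 for Fgb (SE 1.43), -0.68 for Fga (SE 2.82) and 1.01 for Fgg (SE 2.72). Fgb was at 0.26 without DT 1, and Fga at 1.43 without PBS 3. Fgg was at 0.26 without DT 2 and at 2.14 without PBS 1.

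**Figure D4:**
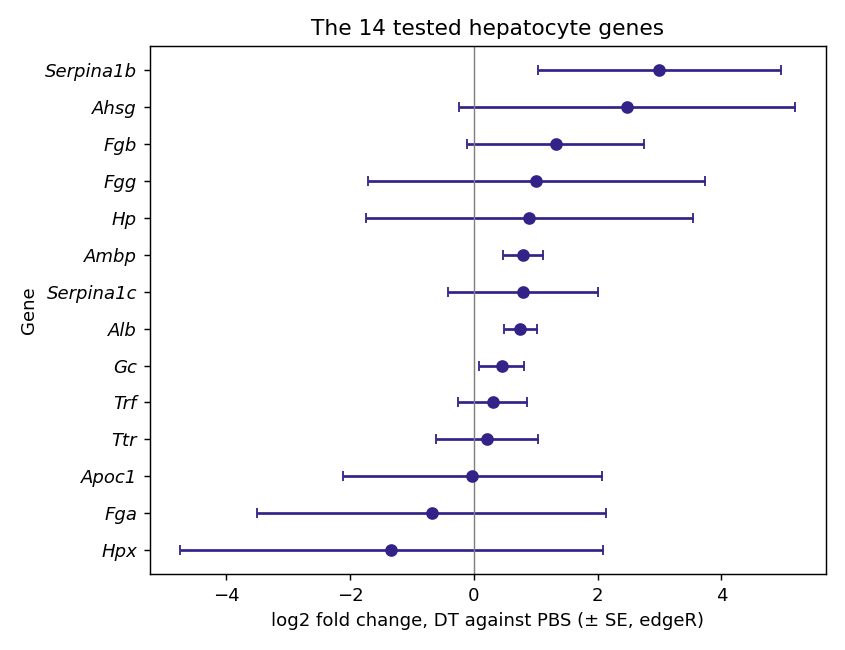
Log2 fold change of DT against PBS (x axis, edgeR, whiskers ± SE) for the 14 members that passed the filter on low counts. Alb and Ambp have short whiskers to the right of 0, at 0.75 and 0.79, and the whiskers of the genes with many counts of 0 reach far to both sides.

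The urea cycle turns ammonia into urea, and its member genes were nearly unread. Cps1, for the entry enzyme, and Ass1, for argininosuccinate synthase, had 0 counts in all 7 libraries. Arg1, for the arginase that releases urea, had 221 counts in DT 2, 260 in DT 3 and 0 in the other 5. All 6 genes of gluconeogenesis and amino acid breakdown were at 0 in every library. These were Pck1 and G6pc, for steps of glucose output, Tat and Hpd of tyrosine breakdown, Tdo2 of tryptophan breakdown and Bhmt of methionine synthesis from betaine. Of the cytochrome P450 genes Cyp3a11 was at 0 throughout and Cyp2e1 had 1 count in PBS 1 and in PBS 4. Fabp1, for the liver fatty acid binding protein, had 209 counts in DT 2, 6 in DT 3 and 0 elsewhere. Mup3, for a urinary pheromone carrier, was at 0 in every library.

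A gene at 0 in all libraries had 0 of 38155325 counts, which allows up to 0.0786 CPM by counting error alone. The limit for a single library was 0.498 to 0.618 CPM. These libraries held more zeros than counting error gives, so the true limits are higher. Of 2022 genes with a mean of 100 to 200 counts per library, 97.0% were at 0 in at least 1 library, as were Rbp4 and Fga, both at that level. At 200 to 500 counts this held for 72.3% of 2524 genes and for all 5 members at that level, Apoc1, Hp, Serpina1b, Ahsg and Fgg. From 500 to 1000 counts it held for 20.4% of genes and for neither Serpina1c nor Fgb, and at 2000 or more for 0.230%. Zeros at these levels were thus common among all genes, members or not. With no filter on low counts all 24 members with a read could be fitted, 0 passed (lowest edgeR adjusted p = 0.521) and 5 had an unadjusted p under 0.05.

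Beyond the 35 genes, 134 genes on 7 further hepatocyte lists were counted, and 52 of them had a read in some library. Of all 24552 symbols 11487 had a read. By edgeR 24 of the listed genes were tested, 17 with positive and 7 with negative log2 fold changes, and 0 passed. Over all tested genes 49.3% were positive. The lowest proportions were among bile acid synthesis and transport, with 3 of 15 genes read, and further urinary protein and serpin copies, with 1 of 23. How reads shared by gene copies were counted is not given in the sources used here. Counts of 0 for these copies, and for the member Mup3, are therefore uncertain. Of 34 further clotting and plasma protein genes 14 were read, 4 were tested and all 4 were positive, and their median log2 fold change was 1.43. Pzp, for a broad protease inhibitor, was at 72.4 ± 99.2 CPM under PBS and 82.1 ± 57.7 under DT, and Itih2, which binds hyaluronan, at 47.0 ± 65.9 and 102.9 ± 120.3 CPM. Proc, which encodes the anticoagulant protein C, was at 32.3 ± 19.1 CPM under PBS and 112 ± 68.1 CPM under DT. It had 31, 170, 187 and 260 counts under PBS and 1042, 206 and 708 under DT. The log2 fold changes of Pzp, Itih2 and Proc were 0.18 (SE 1.80), 1.13 (SE 2.01) and 1.79 (SE 1.93), each smaller than its SE. Apom, for an apolipoprotein of HDL, had 28 counts in DT 1, 344 in DT 3 and 0 elsewhere.

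Acute phase genes were read through Cp and Lcn2, which injured epithelium is also known to make. Cp, for the copper protein ceruloplasmin, was at 2765 ± 308 CPM under PBS and 3539 ± 258 CPM under DT (log2 fold change 0.36, SE 0.20). Lcn2 was at 1147 ± 310.1 and 2259 ± 550.2 CPM, and its log2 fold change of 0.98 (SE 0.26) did not pass (edgeR adjusted p = 0.419). Crp had 184, 377, 102 and 342 counts under PBS and 407, 1272 and 127 under DT, and Lbp had 302, 135, 0 and 13, then 0, 52 and 30. The other 13 of 17 acute phase genes had lower means, and 9 of the 17 were at 0 throughout.

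Genes that mark zones of the liver lobule were read in part, where 53.2% of all symbols were at 0 everywhere. Of 15 genes of the zone near the portal vein 7 were read and 8 were at 0 throughout. Among these Cpt1a, for an enzyme of fatty acid import into mitochondria, was at 84.4 CPM under PBS and 85.6 CPM under DT, and Ctsc, for the lysosomal protease cathepsin C, at 83.7 and 82.9 CPM. Of 15 genes of the zone near the central vein 5 were read and 10 were at 0 throughout. Glul, for glutamine synthetase, was at 274 ± 78.5 and 409 ± 132 CPM with reads in every library, while Oat was at 34.0 and 14.1 CPM, Slc1a2 had reads in 2 libraries and Cyp1a2 17 counts in 1.

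Transcription factors of the hepatocyte program were read more often than its enzymes, with 14 of 15 having a count. Hnf4a, for a nuclear receptor that drives hepatocyte genes, was at 250.3 ± 75.5 CPM under PBS and 301 ± 203 CPM under DT, with DT 1 highest at 3221 counts. The pioneer factor genes Foxa1 and Foxa2 were at 218 ± 116 and 61.4 ± 41.9 CPM under PBS and at 224 ± 66.3 and 43.1 ± 36.5 CPM under DT. Several of these factors are known in duct cells too. Nr5a2, for the receptor LRH-1, had 268, 0, 0 and 105 counts under PBS and 1546, 552 and 598 under DT, with a log2 fold change of 3.09 (SE 1.91). Of 10 tested factors 8 were positive and 2 negative, with a median of 0.52, and 0 passed by edgeR (adjusted p = 1.00 for those named).

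**Figure D5:**
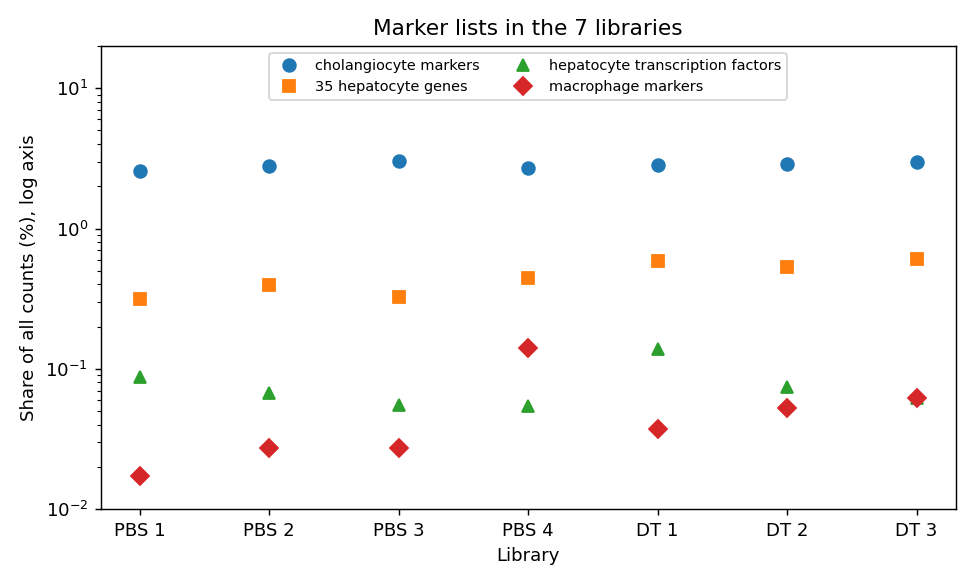
Share of all counts (percent, log axis) taken by 4 gene lists in each library. Cholangiocyte markers lie at 2.57% to 3.02% in all 7 libraries, the 35 hepatocyte genes are higher under DT than under PBS, and macrophage markers are highest in PBS 4.

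Markers of other liver cells were read at lower shares. Endothelial markers took at most 0.00612% of counts and stellate and fibroblast markers at most 0.0133%. T and NK cell markers took 0% to 0.00355% under PBS and 0.000620% to 0.0145% under DT, so the groups overlapped. Among them Gzma had 821 counts in DT 1, 286 in DT 2 and 0 elsewhere, and Gzmb had 195 in PBS 4 and 0 elsewhere. All 5 B cell and all 7 erythroid markers were at 0 in every library. Neutrophil markers were at 0 in PBS 1 to 3, at 0.0397% in PBS 4 and at 0.00389% to 0.0176% under DT, led by S100a8 with 1124 counts in PBS 4. Of the macrophage genes Lyz2 had 1522 counts in PBS 4 and at most 330 in any other library. Without PBS 4 the difference in the share of the 35 genes was 0.230 percentage points, and without PBS 1 and DT 1 together it was 0.179.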

How the data were processed

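The authors deposited unnormalized read counts for 24552 gene symbols in 7 libraries. Per the labels' protocols, each library used 100 ng of total RNA and a QuantSeq FWD kit. The submitters' processing notes name mm9 as the build. Aligner, counting tool, annotation and molecular identifiers were not given in the sources used here. Library titles supplied the groups and replicate numbers. The 35 members and the other gene lists were chosen with earlier results of these data known.

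Counts were scaled by TMM, filtered by filterByExpr (7688 genes kept) and tested with edgeR 4.0.16 (quasi-likelihood, robust, two-sided, R 4.3.3), with Benjamini-Hochberg adjustment over all tested genes and a threshold of 0.05. SE was the absolute fold change divided by the root of F. Shares are of unscaled counts, with exact 95% intervals. Intervals and the limit of 3 counts for a count of 0 cover counting error only, since PCR reads without identifiers are not independent molecules. The code was tested on simulated counts. Every member was named; of other lists, up to 4 genes with the highest mean CPM. Motifs and transcript ends were read with Python 3.11.15 and biopython 1.88. Alternatives were RLE and upper quartile factors, other filters, the replicate block, DESeq2 1.42.0, limma-voom 3.58.1, a Y-linked covariate, removal of Rn45s and leaving out each library.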

Additional observations from a re-analysis of the deposited data

Results flagged for a closer look

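Of 23 values checked for a PBS library far from the other 3, 3 stood apart. For normally distributed values chance gives about 1 in 20, or 1.15. Sets with counts of 0, among them all 3 that stood apart, do not meet that condition, so no excess over chance is read from this. DT, with 3 libraries, was not checked. For Ahsg PBS 3 (253 counts) lay apart by a gap of 0.937 of the PBS range. For Apoc1 PBS 3 was at 0 counts, and with a gap of 0.894 of the PBS range to the next library. For Apoa2 the value was 1, and it rests on 2 counts in PBS 3 against 0 in the others.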

How the results depend on the processing

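No member was called with any of the alternatives except the Y-linked covariate, which called 1 member higher, Serpina1c, at a log2 fold change of 10.01 (edgeR adjusted p = 0.00770, and 0.00770 to 1.00 over its alternatives). That fit sets DT against PBS 1 alone, where Serpina1c had 1 count, and moved the median of all genes to 0.67, against 0.16 with the replicate block, 0.21 by limma-voom and -0.02 in the main test. The lowest adjusted p for Alb was 0.0547, by limma-voom. Over all genes, those higher and lower numbered 0 and 3 in the main test, 1 and 7 with no filter, 1 and 4 with a filter at 3 on the average log2 CPM, 6 and 6 with the replicate block, 29 and 82 by DESeq2, 15 and 6 by limma-voom and 23 and 3 with the Y-linked covariate. Without 1 library they ran from 0 to 1 higher and from 1 (without PBS 1 or PBS 2) to 4 lower. The difference in the share of the 35 genes was 0.138 percentage points without Alb and 0.185 to 0.230 without 1 library.

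Signs turned for 7 tested members, all with a fold change smaller than its SE. Apoc1 was at 0.045 with RLE factors and by DESeq2, 1.25 with the replicate block and 0.79 by limma-voom. Hpx and Fga were at 1.02 and 8.20 with the replicate block, 1.17 and 1.77 by limma-voom and 8.35 and 10.23 with the Y-linked covariate. Ttr, Hp and Fgg were at -0.82, -0.51 and -0.39 with that covariate. Without 1 library Apoc1 ran from -0.97 to 0.32, Ttr from -0.20 to 0.83, Trf from -0.36 to 0.56, Hp from -0.67 to 2.07, Hpx from -3.30 to 0.11 and Fga from -1.26 to 1.43. The cause was not tested. Same-numbered libraries are not said to share an animal, and their deviations correlated at -0.0600 to 0.0251 over 733 genes, so the replicate block is no pairing. Alternatives without PBS 1 and DT 1 together, and counts of members without each library, were chosen after seeing the data. Zeros, frequent below 1000 counts per library, limit the lesser members.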

Other observations

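Ordered by counts within each library, Alb ranked from 185th in PBS 1 to 32nd in DT 1, Gc from 159th in DT 1 to 26th in DT 3, and Ambp from 509th in PBS 3 to 59th in DT 1. Of the 20 members with 100 or more counts in all, 6 had their highest CPM in DT 1 (Alb, Apoc1, Rbp4, Hp, Ambp and Fgb), 7 in DT 3 (Apoa2, Apob, Trf, Gc, Serpina1b, Serpina1c and Arg1) and 3 in DT 2 (Ahsg, Fgg and Fabp1). The remaining 4 had it in a PBS library, Apoa1 and Ttr in PBS 1, Fga in PBS 3 and Hpx in PBS 4. Different members were thus highest in different libraries of the same group. The libraries held reads of 10 (PBS 2) to 19 (DT 3) of the 35 genes.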
